A study of Homo sapiens with 4 samples.

Results

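The pore-forming and auxiliary subunit genes of voltage-gated sodium and calcium channels were described in SH-SY5Y, as the labels name the cells, a line derived from a human neuroblastoma. Members were the gene symbols of the deposited count table that begin with SCN, CACNA1, CACNA2D, CACNB or CACNG and end as subunit names do, which gave 40 of 28058 genes. They comprise 10 pore-forming and 4 beta subunit genes of sodium channels, and 10 pore-forming, 4 alpha2delta, 4 beta and 8 gamma subunit genes of calcium channels. Poly(A) RNA of 2 control libraries (no treatment) and 2 libraries labelled SWT, for shock wave treatment, was sequenced. All libraries came from the same line in high-glucose medium with fetal calf serum, harvested at 6 h. The SWT flasks were held in a water bath at 37 °C, 7 cm from the applicator, and received 300 impulses of 0.08 mJ/mm2 at 3 Hz, per the labels' protocols. The series design text speaks of exosomes instead, and which of these was applied is not clear from them. The labels do not state whether replicates were separate cultures, so the p-values below measure the spread between these libraries, which may be technical.

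Voltage-gated sodium channels open on depolarisation and carry the upstroke of the action potential. Each is built on 1 large pore-forming subunit with smaller beta subunits that alter gating and anchor the channel. Voltage-gated calcium channels turn depolarisation into calcium entry, which triggers transmitter release, contraction and gene transcription. Their pore-forming subunit defines the L, P/Q, N, R and T types, the intracellular beta subunit and the extracellular alpha2delta subunit bring most types to the membrane, and most gamma family proteins serve as partners of AMPA receptors in neurons. Neurons are known for expressing several members of both families together.

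Channel transcripts were few and fell into a small set of genes. A total of 11 of the 40 genes had at least 10 counts in every library (27.5% of members, against 42.6% of all 28058 genes), 12 had 0 counts in all 4 libraries (30% against 36.8%), and 17 lay between. The pore-forming sodium channel genes with at least 10 counts in every library were SCN8A, SCN2A and SCN9A. Of the genes named for calcium channel subunits, CACNA2D1, CACNA2D4, all 4 beta subunit genes and CACNG8 reached that level. CACNG8 encodes an auxiliary protein of AMPA receptors. No pore-forming calcium channel gene reached 10 counts in any library. After SWT edgeR called 0 channel genes, where it called 0 of all 12399 genes tested as higher and 0 as lower.

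**Figure D1:**
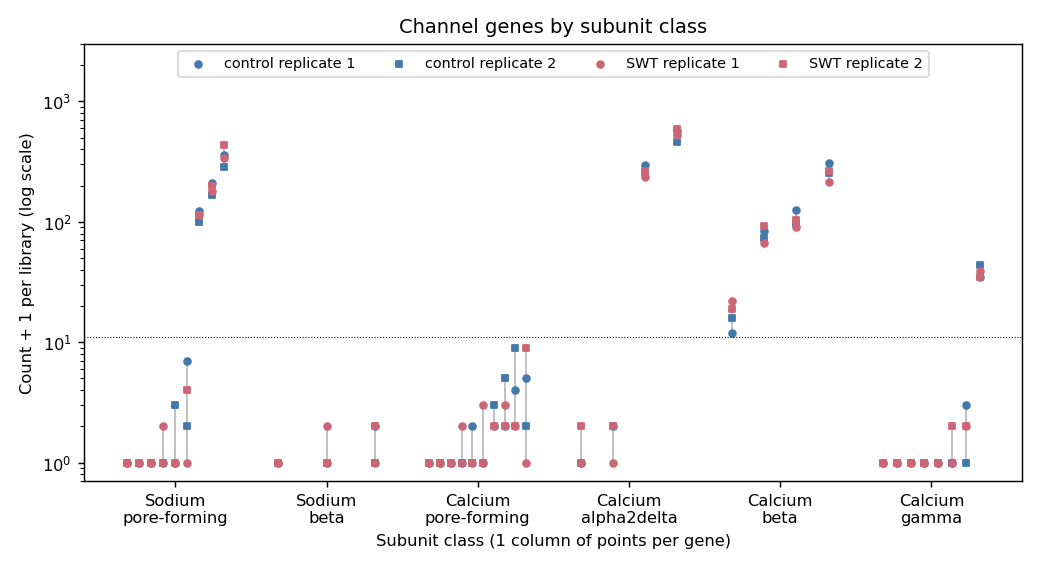
Counts plus 1 (log scale) of 38 channel genes in the 4 libraries, grouped by subunit class, with 1 column of points per gene and the dotted line at a count of 10. The highest pore-forming calcium channel count is 8, while alpha2delta counts reach 587 and sodium pore-forming counts reach 433.

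The CG content of upstream windows overlapped between genes with and without counts. RefSeq start sites on GRCh38.p14 matched 26 of the 40 members, and the 250 bases before each start were read from the RefSeq promoter table. The windows below are those of the alpha2delta gene with the most counts, another alpha2delta gene with 0 to 1 count per library, and the gene of the N-type pore-forming subunit with 0 to 2 counts per library. They lie at chr7:82443957-82444206 (minus strand), chr3:50504245-50504494 (minus strand) and chr9:137877532-137877781 (plus strand), outside annotated exons, and are written 5′ to 3′ along the gene with CG dinucleotides in capitals.
CACNA2D1: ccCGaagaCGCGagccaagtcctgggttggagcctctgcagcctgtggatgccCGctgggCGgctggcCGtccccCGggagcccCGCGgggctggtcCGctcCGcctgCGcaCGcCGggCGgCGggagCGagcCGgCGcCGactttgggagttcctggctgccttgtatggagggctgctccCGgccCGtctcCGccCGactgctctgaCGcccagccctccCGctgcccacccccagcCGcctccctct
CACNA2D2: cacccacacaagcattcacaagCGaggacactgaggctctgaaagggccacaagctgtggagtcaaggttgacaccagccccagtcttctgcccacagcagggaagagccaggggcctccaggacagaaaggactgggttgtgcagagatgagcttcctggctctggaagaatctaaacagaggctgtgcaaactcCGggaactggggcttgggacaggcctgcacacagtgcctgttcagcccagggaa
CACNA1B: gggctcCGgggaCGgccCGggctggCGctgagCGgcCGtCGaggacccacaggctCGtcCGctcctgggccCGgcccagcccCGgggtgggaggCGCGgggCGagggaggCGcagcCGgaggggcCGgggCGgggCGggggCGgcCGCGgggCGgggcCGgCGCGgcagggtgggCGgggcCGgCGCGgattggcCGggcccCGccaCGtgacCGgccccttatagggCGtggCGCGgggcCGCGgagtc
The CACNA2D1 window holds 27 CG dinucleotides, the CACNA2D2 window 2 and the CACNA1B window 39, where the median over 35116 windows of the same length was 11. CACNA1B, with hardly a count, thus had more CG dinucleotides than CACNA2D1.

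Over the members the CG counts overlapped between count classes. The 8 matched genes with a mean of at least 10 counts had 1 to 45 CG dinucleotides (median 23.5), SCN2A being the lowest and SCN8A the highest. The 11 matched genes with 1 count to a mean under 10 had 0 to 51 (median 17). The 7 matched genes with 0 counts had 0 to 41 (median 7), with the L-type gene CACNA1D at 41. The medians were thus ordered with the counts while the ranges overlapped, and the order was not tested. The cyclic AMP response element TGACGTCA, its own reverse complement, was in 0 of the 26 windows and in 1.65% of all windows. TTCAGCACC, the left part of the element bound by the neuronal gene repressor REST, searched on both strands, was in 1 window, that of CACNG3, and in 0.288% of all. GGGCGG, the core bound by SP1, was in 16 of 26 windows on either strand and in 42.6% of all. Of the 26 windows 17 overlap an exon of some annotated transcript, since many of these genes have several starts, so a window stands for 1 start only.

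Depth and identity bear on every value. Total counts ran from 9888263 to 11686808 per library, and a gene with 0 counts in a library may still be present there at up to 0.257 to 0.303 CPM. That limit is the level of 3 counts, a one-sided 95% limit, whereas the Poisson intervals given below for single genes are two-sided. The limit covers counting error only, as the annotation and the rules of read assignment were not given. CPM are counts per 1000000 counts of the TMM-adjusted library total. The tissue label calls the cells neurons. Of 10 noradrenergic markers 6 had 0 counts in all libraries, among them TH and DBH, and 1 stood at 10 CPM or more in every library, HAND2 at 52.0 CPM on average. ISL1 and GATA3 stood at 5.76 and 2.73 CPM on average. Of 10 mesenchymal markers 9 stood at 10 CPM or more in every library, all but SNAI2 at 3.23 CPM on average. The 3 highest were VIM at 3251, COL1A1 at 3022 and COL3A1 at 2914 CPM on average. Of 14 general neuron markers, 5 were at 10 CPM or more in every library, namely UCHL1, TUBB3, MAP2, NEFL and SYT1. A further 6 were under 1 CPM in every library. Of these, DCX, ELAVL3 and SYN1 had 0 counts in all libraries, ELAVL4 and RBFOX3 1 count each, and NEFM 20. The sum of 26 heart muscle markers came to 352 and 3796 counts in the controls and to 609 and 360 in SWT. Control replicate 2 thus stood highest, followed by SWT replicate 1. GATA4 was near even, at 266, 203, 229 and 265 counts in that order, and made up most of the lowest sums. ACTC1 (0, 524, 68 and 2) and TTN (0, 312, 46 and 3) were uneven within both groups. Not every marker was higher in the first SWT library, LDB3 having 12 and 15 counts in SWT. These genes were picked with their values known. No pair of replicates agreed within sampling noise, with chi-squares of 3.80 per degree of freedom for the controls and 1.72 for SWT.

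Sodium channel pore-forming genes summed to 702 and 566 counts in control and to 637 and 749 in SWT. SCN8A, SCN2A and SCN9A supplied 97.2% to 99.5% of that sum in each library. SCN8A alone supplied 51.4% and 50.5% in control and 53.5% and 57.8% in SWT. The other 7 genes added few counts to this class, and these are shares of counts, not per length. In RNA of whole cultures, fewer cells with a transcript and less of it per cell cannot be told apart.

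SCN8A encodes a pore-forming subunit concentrated at axon initial segments and nodes of Ranvier (chromosome 12, 51590266 to 51812864, plus strand). It stood at 31.1 and 28.9 CPM in the control libraries and at 33.8 and 37.1 CPM in the SWT libraries. Both SWT values lay above both control values. Group means were 30.0 ± 1.54 CPM (control) and 35.5 ± 2.34 CPM (SWT; SD, n = 2 each), giving a log2 fold change of 0.24 (SE 0.092, 95% interval 0.048 to 0.44) that did not pass edgeR's quasi-likelihood test (unadjusted p = 0.0176, adjusted p = 0.838 over 12399 genes). An unadjusted p under 0.05 was given to 5.77% of all genes tested, 2.81% as higher and 2.96% as lower.

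SCN2A encodes a pore-forming subunit prominent in young axons of the central nervous system (chromosome 2, 165194993 to 165392310, plus strand). Its level was 18.2 and 16.8 CPM in control and 17.7 and 17.0 CPM in SWT, so the groups overlapped. The log2 fold change was -0.016 (SE 0.12, 95% interval -0.27 to 0.23, edgeR adjusted p = 0.997). SCN9A, the pore-forming gene of pain-sensing and sympathetic neurons (chromosome 2, 166195185 to 166376001, minus strand), stood at 10.6 and 9.90 CPM in control and 11.3 and 9.78 CPM in SWT. Its groups overlapped too, at a log2 fold change of 0.034 (SE 0.15). Genes on the opposite strand overlap several channel genes, and the strand setting of the counting was not given in the sources used here. Exon bases shared with 1 such gene came to 8.2% in SCN9A, 6.0% in SCN8A, 5.7% in CACNB1, 8.3% in CACNB2 and 9.9% in SCN3A. Among other genes with few or no counts, they came to 9.6% in CACNA2D2, 6.8% in CACNA1D and 6.8% in CACNG4. CACNB4 shared 6.0% with a protein-coding gene on its own strand. How reads over shared bases were counted was not given, so these counts may hold reads of neighbours or lack reads of their own.

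SCN2A and SCN9A lie in a run of 5 sodium channel genes on chromosome 2 (165087522 to 166494326), in the order SCN3A, SCN2A, SCN1A, SCN9A and SCN7A. Their neighbours there had almost no counts. SCN3A, a pore-forming gene of the developing brain, had 6 and 1 counts in control and 0 and 3 in SWT. SCN1A, mutated in Dravet epilepsy, had 1 count, in SWT replicate 1, and the atypical SCN7A had 2, both in control replicate 2. The sensory neuron genes SCN10A and SCN11A and the skeletal muscle gene SCN4A had 0 counts in all libraries.

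Of the beta subunit genes, which alter gating and act in cell adhesion, SCN2B had 0 counts, SCN3B 1 and SCN4B 2 over the 4 libraries.

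Pore-forming calcium channel genes together gave 10 and 15 counts in control and 7 and 11 in SWT over 10 genes, a total of 43 (exact 95% Poisson interval 31.1 to 57.9). In the same libraries, as counts and not per length, the 4 alpha2delta genes gave 870, 714, 755 and 850 counts and the 4 beta genes 526, 436, 390 and 477. The L-type genes CACNA1D, CACNA1F and CACNA1S, the last of skeletal muscle, had 0 counts in all libraries. CACNA1A, of P/Q-type channels, had 1 or 2 counts in each library. CACNA1B (N type), CACNA1E (R type) and CACNA1I (T type) had 2, 1 and 1 counts in all.

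The 3 remaining pore-forming genes had a few counts each. CACNA1G, of T-type channels, had 4 and 1 counts in control and 0 and 8 in SWT, so its 2 SWT libraries differed more than the groups. CACNA1H, also T type, had 1 and 4 counts in control and 2 and 1 in SWT. CACNA1C, the L-type gene of heart and smooth muscle and many neurons, had 3 counts in control replicate 1 (exact 95% Poisson interval 0.619 to 8.77), 8 in control replicate 2 (3.45 to 15.8) and 1 in each SWT library (0.0253 to 5.57). Its highest count was in control replicate 2, the library with 3796 heart marker counts, and the part of heart muscle transcripts in it was not tested. Intervals and limits on counts cover counting error only.

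**Figure D2:**
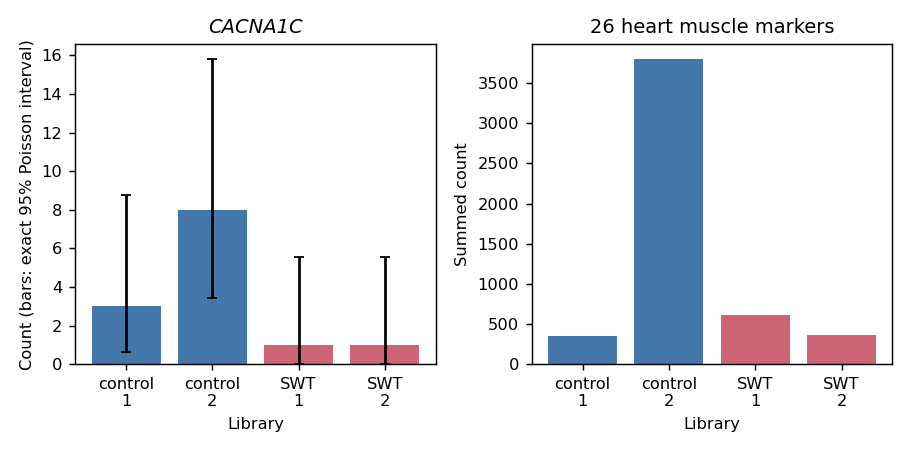
Counts of CACNA1C in each library with exact 95% Poisson intervals (bars), beside the summed counts of 26 heart muscle markers. Control replicate 2 is highest in both panels, with 8 and 3796 counts.

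CACNA2D1 had the highest mean level of all channel genes, per transcript length as in CPM. It encodes an alpha2delta subunit, the binding protein of gabapentin and a receptor for thrombospondins (chromosome 7, 81946444 to 82443798, minus strand). It stood at 49.2 and 46.2 CPM in control and 51.8 and 50.3 CPM in SWT. Both SWT values lay just above both controls, at 47.7 ± 2.17 against 51.1 ± 1.01 CPM (SD, n = 2 each) and a log2 fold change of 0.095 (SE 0.076, 95% interval -0.065 to 0.25, edgeR adjusted p = 0.912). It was 0.052 without control replicate 2, and 0.044 with the trend of each library with transcript length and GC content removed.

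CACNA2D4, an alpha2delta gene known from photoreceptors (chromosome 12, 1791957 to 1918836, minus strand), stood at 25.6 and 25.9 CPM in control and 23.1 and 22.4 CPM in SWT. Both SWT values lay below both controls. Group means were 25.7 ± 0.209 and 22.7 ± 0.512 CPM (SD, n = 2 each), giving a log2 fold change of -0.18 (SE 0.10, 95% interval -0.39 to 0.035, edgeR adjusted p = 0.870). CACNA2D2 and CACNA2D3 had 3 and 1 counts over the 4 libraries.

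All 4 beta subunit genes were present, CACNB3 most. CACNB3 encodes a beta subunit common in neurons and smooth muscle (chromosome 12, 48813794 to 48828941, plus strand) and stood at 26.5 and 25.6 CPM in control against 21.2 and 22.7 CPM in SWT. Both SWT values lay below both controls. Group means were 26.0 ± 0.675 and 22.0 ± 1.06 CPM (SD, n = 2 each), giving a log2 fold change of -0.24 (SE 0.10, 95% interval -0.46 to -0.028). It did not pass the test (edgeR unadjusted p = 0.0292, adjusted p = 0.838).

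CACNB4, a beta gene of brain and cerebellum, stood at 10.7 and 9.70 CPM in control and 8.83 and 8.75 CPM in SWT, with both SWT values lower and a log2 fold change of -0.22 (SE 0.15). It was -0.14 without control replicate 1. CACNB1, the beta gene of skeletal muscle that is also found in neurons, stood at 7.14 and 7.27 CPM in control and at 6.55 and 7.89 CPM in SWT. Its SWT libraries lay on either side of the controls, and the log2 fold change was 0.0087 (SE 0.17). CACNB2, the main beta gene of heart, had 11 and 15 counts in control and 21 and 18 in SWT, or 0.947, 1.52, 2.08 and 1.54 CPM. Both SWT values lay above both controls by value, at a log2 fold change of 0.56 (SE 0.38), 0.24 with control replicate 1 left out, 0.34 with SWT replicate 1 left out and 0.92 with control replicate 2 left out. The heart marker sum was highest in control replicate 2, as were most of the 26 listed markers, MYH6 and TNNT2 among them, unlike CACNB2. The heart myosin genes MYH7 and MYL2 were highest in SWT replicate 1, as CACNB2 was. MYH7 had 3 and 35 counts in control and 55 and 1 in SWT, and MYL2 had 4, 13, 23 and 8 in the same order. MYH7 and MYL2 were chosen after their values were seen, and the part of heart muscle transcripts in CACNB2 was not tested.

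Of the gamma family only CACNG8 had at least 10 counts in every library. It encodes an auxiliary protein of AMPA receptors and had 34 and 43 counts in control and 38 and 34 in SWT, with overlapping groups and a log2 fold change of -0.11 (SE 0.26). It lies between CACNG7 and CACNG6 on chromosome 19 (53909335 to 54012669), and these neighbours had 4 and 1 counts over the 4 libraries. CACNG5, CACNG4 and CACNG1, side by side on chromosome 17 (66835117 to 67056797), had 0 counts, as did CACNG2 and CACNG3.

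Levels of different genes were compared per length, as CPM per kb of the longest annotated transcript. CACNA2D1 led with 6.53 CPM per kb (range 6.10 to 6.85 over the 4 libraries) and CACNB3 followed with 5.96 (5.27 to 6.58), and these ranges overlapped. CACNA2D4 at 4.08 (3.77 to 4.36) and SCN8A at 2.83 (up to 3.21) stood apart from each other and from their neighbours in the order. SCN2A at 1.49, CACNB1 at 1.36, CACNB4 at 1.10 and SCN9A at 1.06 CPM per kb formed a group in which each range overlapped with the next, apart from the genes that followed. CACNG8 at 0.399 and CACNB2 at 0.259 CPM per kb closed the order, again with overlapping ranges. Several of these steps depended on the length used. With the union of all exons the first 4 genes kept their places, but CACNB3 stood at 3.36 CPM per kb (2.97 to 3.71), apart from CACNA2D1 at 5.48 (5.12 to 5.75) and overlapping with CACNA2D4 at 3.17 (2.93 to 3.39). SCN2A moved from the 5th to the 7th place at 0.734 CPM per kb, after CACNB1 at 1.02 and SCN9A at 0.756, and CACNB4 from the 7th to the 9th at 0.262.

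**Figure D3:**
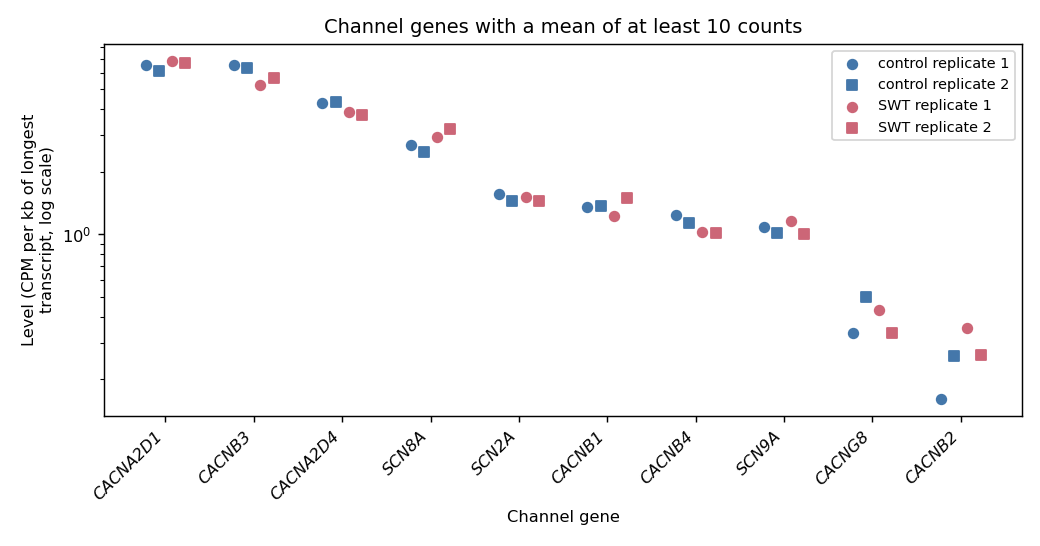
Level of 10 channel genes with a mean of at least 10 counts, in CPM per kb of the longest transcript (log scale), with 1 point per library. CACNA2D1 and CACNB3 lie at the top with 6.53 and 5.96 on average and CACNB2 at the bottom with 0.259, and the 4 libraries of a gene lie close together compared with the span between genes.

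The comparison of SWT with control asks whether these levels differed after treatment. The test called 0 of the 11 channel genes kept by the filter on low counts, where it called 0% of the 12399 genes as higher and 0% as lower. DESeq2 called 0 of 28 channel genes, with 0 at an unadjusted p under 0.05, where 116 of all 17737 genes had one. Limma-voom called 0 of 11, with 2 unadjusted, where 721 of all 12399 genes had one. In edgeR an unadjusted p under 0.05 was reached by 2 of the 11, against 5.77% of all genes tested. These were SCN8A, higher by value, and CACNB3, lower. Adjusted p-values for the 11 genes ran from 0.838 to 0.998 (edgeR). By value 6 genes lay above 0 and 5 below. The median log2 fold change was 0.0086, against -0.00078 over all genes tested. The groups did not overlap for 6 of the 11, with SCN8A, CACNA2D1 and CACNB2 above and CACNA2D4, CACNB3 and CACNB4 below, against 35.3% of all genes tested (17.3% above and 18% below). For 10 genes, all but CACNB2, the 95% interval stayed between -1 and 1, and for 7 between -0.5 and 0.5.

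These differences shifted when single libraries were left out or the trend with length and GC content was removed. The sign of the differences of CACNB1, CACNG8, SCN2A and SCN9A changed when 1 library was left out. SCN8A stood at 0.30 and 0.20 with control replicates 1 and 2 left out, and at 0.31 and 0.17 with SWT replicates 1 and 2 left out. CACNB3 stood at -0.21, -0.27, -0.20 and -0.29 in the same order. Across 6294 genes the SWT minus control difference correlated with GC content at a Spearman rho of -0.403 and with transcript length at 0.285. Between replicates of 1 group the trend with GC content was about as strong. Replicate 2 minus replicate 1 correlated with it at -0.483 in control and 0.382 in SWT. These are descriptions across genes, which are not independent of each other. SCN8A has a longest transcript of 11.6 kb and CACNB3 one of 4.03 kb. With each library's trend with length and GC content removed, SCN8A stood at 0.20 (edgeR adjusted p = 0.733) and CACNB3 at -0.20 (edgeR adjusted p = 0.753).

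**Figure D4:**
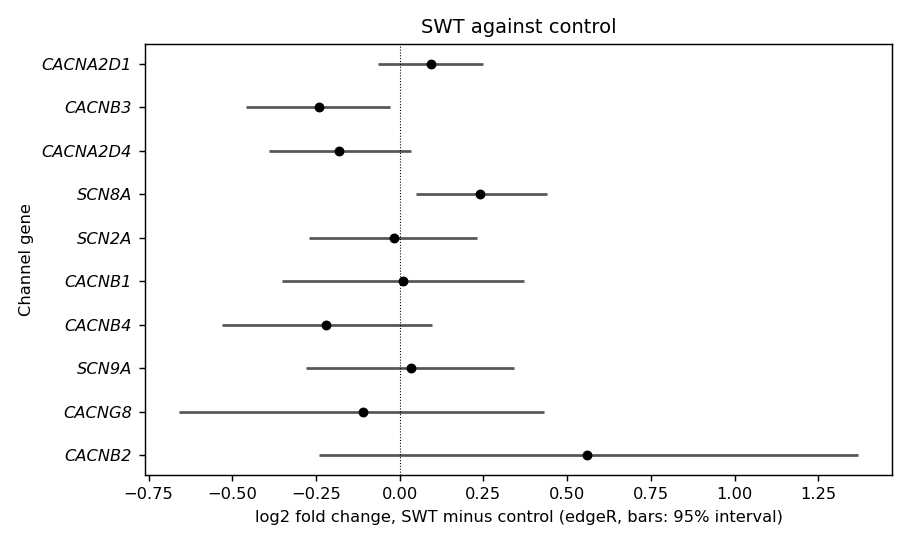
Log2 fold change of SWT minus control (points) with 95% intervals (bars) from edgeR for 10 channel genes, ordered as in the plot of levels. The intervals of SCN8A (0.048 to 0.44) and CACNB3 (-0.46 to -0.028) do not cross 0 before adjustment, and the widest belongs to CACNB2 (-0.24 to 1.37).

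Genes that work with the channels were read from lists of partners. Of 21 sodium channel partners 10 were tested, with 0 called in either direction by edgeR (2 higher at an unadjusted p under 0.05) and a median log2 fold change of 0.022. Over all genes tested edgeR called 0%, and 2.81% were higher and 2.96% lower at an unadjusted p under 0.05. The counts of this and the following lists stand beside these shares. The ubiquitin ligases NEDD4L and NEDD4, which remove sodium channels from the membrane, stood at 108 ± 6.77 and 93.0 ± 7.24 CPM, and the scaffold gene ANK2 at 44.7 ± 2.69 CPM (SD, n = 4). NEDD4 had a log2 fold change of 0.16 (unadjusted p = 0.0264) and NEDD4L of 0.14 (unadjusted p = 0.0388), at edgeR adjusted p-values of 0.838 and 0.843. Of the 10 tested, 4 had both SWT libraries above both controls, NEDD4L, NEDD4 and ANK2 among them, and 1 had both below, against 17.3% and 18% of all genes tested. The 1 below was RANGRF, at 35.8 and 33.0 CPM in control and 32.8 and 29.7 CPM in SWT, named after its values were seen.

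Of 25 calcium channel partners 17 were tested, with 0 called (unadjusted, 1 higher and 2 lower) and a median of 0.018. Both SWT libraries lay above both controls for 3 of the 17 and below for 5, against 17.3% and 18% of all genes tested. AHNAK, a large scaffold that binds the beta subunit, stood at 1581 and 1183 CPM in control and at 1486 and 1616 CPM in SWT, so its controls differed more than the groups. THBS1, a secreted ligand of the alpha2delta protein, had a log2 fold change of 0.23 (edgeR adjusted p = 0.759). RRAD, a small GTPase that inhibits calcium channels, stood at 23.5 and 21.1 CPM in control and 18.6 and 18.7 CPM in SWT, a log2 fold change of -0.26 (edgeR adjusted p = 0.843). The calmodulin gene CALM3 stood at 460 ± 18.1 CPM (SD, n = 4).

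Of 29 genes for calcium stores and pumps 21 were tested, with 0 called and a median of -0.03. No tested member had an unadjusted p under 0.05 (0 of 21, edgeR). Both SWT libraries lay above both controls for 2 of the 21 and below for 2, against 17.3% and 18% of all genes tested. ATP2A2, the pump gene of the sarcoplasmic and endoplasmic reticulum, stood at 595 ± 2.99 CPM, and the plasma membrane pump gene ATP2B4 at 350 ± 26.3 CPM (SD, n = 4). Calreticulin, CALR, the store calcium buffer, reached 1239 CPM on average. MCU, the pore of the mitochondrial uniporter, and ORAI1, the pore of store-operated calcium entry, each stood at 0.13 on the log2 scale (edgeR adjusted p = 0.875 and 0.902).

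Of 30 genes of calcium-dependent signalling 25 were tested, with 0 called (unadjusted, 2 higher) and a median of 0.062. By value 17 lay above 0 and 8 below, and the share over all genes was not counted. Both SWT libraries lay above both controls for 9 of the 25 and below for 5, against 17.3% and 18% of all genes tested. MEF2D, a calcium-responsive factor, PPP3R1, the regulatory subunit of calcineurin, and CRTC2, a CREB coactivator, stood at 124 ± 3.55, 113 ± 7.13 and 76.2 ± 4.04 CPM (SD, n = 4). The factor gene NFATC2 stood at 1.12 and 0.707 CPM in control and 1.69 and 1.89 CPM in SWT (log2 fold change 0.94, edgeR adjusted p = 0.838). CREB1 had a log2 fold change of 0.16 (edgeR adjusted p = 0.843).

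REST, the repressor that keeps many neuronal genes silent outside neurons, was present with most of the corepressors listed. RCOR2 stood at 2.19 CPM on average, and the histone methyltransferase gene EHMT2 had 0 counts in all libraries. The annotation and the rules of read assignment were not given, so the 0 for EHMT2 was not read as absence. For the same reason the limit given above for 0 counts may not hold for EHMT2 or for channel genes with 0 counts. REST stood at 37.2 and 35.7 CPM in control and 39.3 and 37.4 CPM in SWT, a log2 fold change of 0.071 (edgeR adjusted p = 0.938). Of the 9 genes of this list 8 were tested and 0 called (unadjusted, 1 higher), with a median of 0.017. Both SWT libraries lay above both controls for 2 of the 8 and below for 1, against 17.3% and 18% of all genes tested. The corepressor gene RCOR1 stood at 0.16 on the log2 scale (edgeR adjusted p = 0.843), and KDM1A, HDAC1 and HDAC2 at 177 ± 3.43, 152 ± 3.30 and 233 ± 4.80 CPM (SD, n = 4).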

How the data were processed

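Poly(A) RNA-seq of 4 SH-SY5Y libraries was analysed. The authors deposited raw counts per gene symbol and a table of log2 values for 17151 genes, including 28 channel genes. Trimmomatic 0.36, FastQC 0.11.5, STAR 2.5.3a, HTSeq, DESeq2 and hg38 are named without roles, per the submitters' processing notes. Annotation and strand setting were not found in them or in the labels. The test was edgeR 4.0.16 under R 4.3.3 (TMM, filterByExpr, quasi-likelihood F-test, Benjamini-Hochberg over 12399 genes, threshold 0.05). Standard errors divide the log2 fold change by the root of F, so intervals are approximate. Gene positions and lengths come from GENCODE release 29 (GRCh38, the same assembly as hg38), and upstream windows from RefSeq. Matplotlib 3.10.9 in Python 3.11.15 drew the plots. Alternatives used DESeq2 1.42.0 and limma 3.58.1. Members, partner lists and rules were chosen with earlier results of these data known. Channel genes with a mean of at least 10 counts were named, and of each partner list the 3 of highest level and the 2 of smallest p, with exceptions marked; some genes are not reported here.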

Additional observations from a re-analysis of the deposited data

How the results depend on the processing

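The count of 0 channel genes called, in either direction, held under every alternative run with a test, including a threshold of 0.1, DESeq2 and limma on voom weights or on the deposited log2 values. Over all genes, edgeR called 20 higher and 43 lower of 17737 with no filter. It called 1 higher of 12399 with the length and GC trend removed. With so small a share called over all genes, a count of 0 does not set the channel genes apart. With 1 library left out at a time, between 2 and 106 were called higher and between 15 and 97 lower; these fits assume that a lone library varies as the other group does. With the replicate number as a block it called 0 higher and 1 lower, and with that block and the length and GC trend removed 22 higher and 14 lower, with 0 channel genes among them in both. Deviations of same-numbered libraries correlated at -0.283, which gave no sign that the numbers pair the libraries, though it rests on 1 difference per group. A crossed pairing, added after seeing the data, called 55 higher and 42 lower, again with 0 channel genes. The median log2 fold change of the channel genes ranged from -0.061 to 0.039 when 1 library was left out. Differences that changed sign ranged, with 1 library left out, from -0.14 to 0.13 for CACNB1, -0.39 to 0.18 for CACNG8, -0.069 to 0.045 for SCN2A and -0.07 to 0.14 for SCN9A. CACNB1 stood at -0.00084 under the replicate block. SCN9A stood at -0.024 with the length and GC trend removed, at -0.018 with the replicate block added, and at -0.11 between control replicate 1 and SWT replicate 2 only. The count of 11 genes with at least 10 counts in every library held without any 1 library, and genes at 0 numbered 13 to 16 in the remaining libraries. The cause of these shifts was not tested. At this depth 0 counts in 1 library allow a level of up to 0.257 to 0.303 CPM in that library. That limit may not hold where reads of a gene were not assigned to it, which could not be checked.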

Other observations

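Calcium release genes of heart muscle, RYR2 and CASQ2, also stood highest in control replicate 2. RYR2, the heart ryanodine receptor, had 74 and 165 counts in control and 91 and 103 in SWT, and CASQ2, a calcium buffer of heart muscle stores, had 0 and 39 in control and 4 and 0 in SWT. SLC8A1, the sodium-calcium exchanger gene, had 235 and 249 counts in control and 257 and 272 in SWT, or 20.2, 25.2, 25.5 and 23.3 CPM. These 3 genes were chosen after their values were seen.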
